A study of Caenorhabditis elegans with 2 samples.

Results

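The genes described are the 10 of the inductive and lateral signals that pattern the vulva of Caenorhabditis elegans, namely lin-3, let-23, let-60, lin-45, lin-1, lin-31, egl-17, lin-12, lag-2 and apx-1. They were taken by symbol from 19985 protein-coding genes, and each was given a window of its gene body plus 5 kb upstream of its annotated 5′ end. What was measured is where the nuclear hormone receptor NHR-25, the worm member of the NR5A family, sits on the genome. Chromatin immunoprecipitation followed by sequencing used an anti-GFP antibody on whole hermaphrodite L4 larvae of strain OP33 (unc-119(ed3) III; wgIs33), in which a transgene adds a GFP-FLAG tag to the C terminus of NHR-25. The 2 biological replicates form a single group, both carry the unc-119 mutation and the transgene, and no other group or control list is compared here.

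In the vulval precursor cells, the epidermal growth factor-like ligand LIN-3 from the anchor cell of the gonad acts on the receptor tyrosine kinase LET-23. The signal passes through the GTPase LET-60 (Ras), the kinase LIN-45 (Raf) and a MAP kinase to the transcription factors LIN-1 (ETS family) and LIN-31 (forkhead family). The cell that receives most of it takes the primary fate, switches on the fibroblast growth factor-like gene egl-17 and makes DSL ligands, among them LAG-2 and APX-1, which act on the Notch receptor LIN-12 of its neighbours. NHR-25 is known to be needed for vulval and epidermal development. The chromatin came from whole larvae, in which vulval cells are few, so a site occupied in few cells and a site occupied weakly in many cannot be told apart. Only L4 larvae were sampled, so whether NHR-25 sits at these sites when the signals above act was not tested.

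NHR-25 peaks that passed the authors' reproducibility threshold lay at 3 of the 10 genes: let-60, lin-45 and egl-17. The strongest was upstream of let-60, with a pooled signal of 57.3, and those at lin-45 and egl-17 had 37.0 and 33.8, under the thresholded list's median of 41.2. The ligand genes lin-3, lag-2 and apx-1, the receptor genes let-23 and lin-12 and the transcription factor genes lin-1 and lin-31 had no thresholded summit in their windows. Over all protein-coding genes, 13.1% had a thresholded summit in a window drawn by the same rule, against 30% of the 10. The windows of these genes are long, however, with a median of 12.7 kb against 7.03 kb over all genes. Per 10 kb of window, the 10 genes held 0.221 thresholded summits and all protein-coding genes 0.202, so the density at these genes was near the background. No test was made of this difference.

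The DNA under the 3 thresholded peaks is shown because the sites differ in what else is annotated there. The sequences were read from the reference assembly WBcel235, which is ce11. At let-60 the stretch is chrIV:11692329-11692628 on the plus strand, the first 300 bases of the peak, and the capitals mark the match to the repeat GAGAGAG, on the minus strand. At egl-17 it is chrX:489794-490040 on the plus strand, from the start codon to the end of the peak, and the capitals mark an annotated tRNA gene of 72 bp. At lin-45 it is chrIV:6747884-6748071 on the minus strand, the 188 bases of the peak that lie before the nearest 5′ end, in which 0 of the 9 motifs searched (named further on) were found.
let-60: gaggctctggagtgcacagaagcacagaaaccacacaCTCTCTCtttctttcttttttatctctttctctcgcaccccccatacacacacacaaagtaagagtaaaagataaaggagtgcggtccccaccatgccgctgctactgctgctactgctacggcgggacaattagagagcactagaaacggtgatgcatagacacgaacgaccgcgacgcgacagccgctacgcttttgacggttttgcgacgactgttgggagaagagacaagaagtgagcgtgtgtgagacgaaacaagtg
egl-17: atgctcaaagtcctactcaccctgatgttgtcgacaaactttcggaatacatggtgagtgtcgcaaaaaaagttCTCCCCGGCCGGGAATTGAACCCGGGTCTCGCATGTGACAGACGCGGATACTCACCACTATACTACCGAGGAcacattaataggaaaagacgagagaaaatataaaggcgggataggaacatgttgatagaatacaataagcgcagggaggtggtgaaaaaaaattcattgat
lin-45: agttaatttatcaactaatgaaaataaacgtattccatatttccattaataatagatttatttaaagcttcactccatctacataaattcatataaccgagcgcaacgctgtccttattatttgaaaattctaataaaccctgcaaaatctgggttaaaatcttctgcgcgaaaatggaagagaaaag

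The let-60 gene (WBGene00002335, chromosome IV, 11688227 to 11691088, minus strand), which encodes the worm Ras protein, had the strongest peak of the 10. The peak spans 11692329 to 11692718 and ranked 397 of 1826 thresholded peaks. Its signal was 23.6 in replicate 1, where it ranked 473 of 23929, and 36.2 in replicate 2, where it ranked 398 of 30000. The replicate summits lay within 16 bp of the pooled one, and in both lists the peak stood far above every other at let-60. The summit lies 1436 bp upstream of the annotated 5′ end of let-60, inside the noncoding gene ZK792.10 (11692444 to 11692592, plus strand). Of thresholded summits, 9.69% lay inside an annotated gene of that noncoding class. The nearest protein-coding 5′ end is that of ZK792.12, 1269 bp away, and the summit falls in the windows of 4 protein-coding genes (let-60, ZK792.5, ZK792.7 and ZK792.12). Which of these genes the site relates to, if any, was not tested. At the promoter of let-60 itself, 330 bp upstream, the pooled list held a peak of 11.4, below the threshold. It overlapped a replicate 2 peak of 6.40, with its summit 555 bp upstream, and no peak in replicate 1.

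The lin-45 gene (WBGene00003030, chromosome IV, 6742537 to 6748572, minus strand) encodes Raf, the kinase that LET-60 activates. Its thresholded peak, at 6747682 to 6748071, had a pooled signal of 37.0 and ranked 1198. The signal was 16.0 in replicate 1 and 17.1 in replicate 2, with ranks of 1217 and 2428 in those lists. It was among the 1826 strongest peaks of replicate 1 and not of replicate 2. The summit sits 6 bp from the 5′ end of a shorter lin-45 transcript, in its 5′ UTR, and 695 bp inside the longest annotated gene span. At the start of that longer span, 36 bp upstream, the only pooled peak had a signal of 5.33 and overlapped no peak of either replicate. A second pair of pooled summits lay in coding exons 4355 and 4555 bp into the gene, with 12.4 and 13.6. Both overlapped the same replicate 1 peak of 9.93 and a replicate 2 peak of 5.78.

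The egl-17 gene (WBGene00001185, chromosome X, 489685 to 492318, plus strand) encodes a fibroblast growth factor-like ligand and is a standard marker of the primary vulval fate. It had a single pooled peak, at 489651 to 490040, with a signal of 33.8 and a rank of 1470, near the lowest thresholded signal of 30.3. The signal was 16.6 in replicate 1 (rank 1127) and 22.0 in replicate 2 (rank 1441), so it was among the strongest 1826 of both. The summit lies in the first coding exon, 161 bp inside the gene and 72 bp from the 5′ end of its other transcript. It is also 22 bp from the tRNA gene WBGene00023035 (489868 to 489939, minus strand), which the peak covers whole. Of all thresholded peaks, 4.49% overlapped an annotated tRNA gene. In a peak 390 bp wide, signal at the egl-17 promoter and signal at the tRNA gene cannot be told apart.

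**Figure D1:**
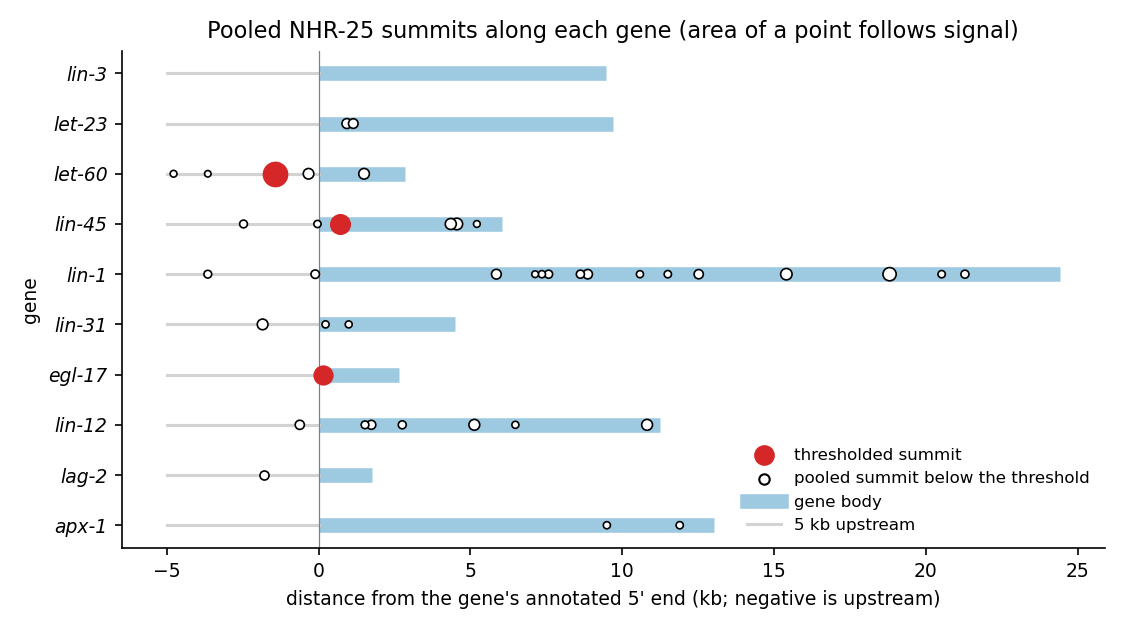
Pooled NHR-25 summits along the 10 genes, by distance in kb from each gene's annotated 5′ end, with gene bodies as blue bars and 5 kb upstream as grey lines. Filled red points are the 3 thresholded summits, open points are pooled summits below the threshold, and the area of a point is proportional to its signal. Red points stand upstream of let-60 and near the start of lin-45 and egl-17, lin-1 carries 15 small open points, and lin-3 carries none.

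In the pooled and replicate lists as a whole, the thresholded sites included, summits were common at these genes. Per 10 kb they were about as common elsewhere. Of the 10 genes, 9 had a pooled summit, where 65% of protein-coding genes did. At egl-17 the only pooled summit was the thresholded one. In the replicate 1 list it was 9 of 10 against 68.3%, and in the replicate 2 list 9 of 10 against 71.1%. Per 10 kb, the pooled list held 3.17 summits in these windows and 3.05 over all genes. The replicate 1 list held 2.06 against 2.47, and the replicate 2 list 3.24 against 3.06. The 40 pooled peaks of these genes below the threshold had signals from 4.33 to 17.9, with a median of 6.59, while the median of the whole pooled list was 8.04. Of the 40, 14 (35%) overlapped a peak in both replicates, against 39.5% of all 28174 pooled peaks below the threshold. The let-60 peak among them overlapped the replicate peaks of the thresholded site there, and some others shared a replicate peak. By place, of all 43 pooled summits in the windows, 22 lay in introns, 12 upstream, 8 in coding exons and 1 in a UTR.

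The inductive ligand gene lin-3 (WBGene00002992, chromosome IV, 11054308 to 11063768) had no pooled summit and no replicate 2 summit in its window of 14.46 kb. Replicate 1 held 1 summit, with a signal of 2.43 at rank 20672 of 23929, near the foot of that list. The nearest thresholded summit outside the window was 17 kb beyond its 3′ side, with a signal of 35.1, at atg-7.

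The receptor gene let-23 (WBGene00002299, chromosome II, 9197512 to 9207213) had 2 overlapping pooled peaks, of 10.1 and 9.39, 934 and 1144 bp inside the gene. Their summits lay 189 and 399 bp from the 5′ end of another let-23 transcript. The stronger peak ranked 11131 of 30000. Both overlapped a peak of 3.80 in replicate 1 and one of 5.96 in replicate 2. The highest replicate 1 signal in the window, 5.88, lay elsewhere, 6762 bp inside the gene, so the replicates differed in which position was highest. A thresholded summit of 36.6 lay only 2.6 kb beyond the upstream edge of the window, with the 5′ end of sym-2 the nearest.

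Among the transcription factor genes, lin-1 (WBGene00002990, chromosome IV, 2275861 to 2300286) came closest to the threshold. Its strongest pooled peak, at 2281282 to 2281671 in an intron, had a signal of 17.9 and a rank of 4639, which is 59% of the lowest thresholded signal. In replicate 2 the overlapping peak had 17.7 and ranked 2269, and in replicate 1 it had 2.86 and ranked 17990. The peak thus ranked far higher in replicate 2 than in replicate 1. The next, also intronic, had 13.3 in the pooled list, 10.8 in replicate 2 and no overlapping peak in replicate 1. The gene is long, and its 15 pooled summits in a window of 29.43 kb come to 5.10 per 10 kb, against 3.05 over all genes. Among the 10 genes let-60, at 7.63, and lin-45, at 5.44, were higher and the rest lower. At the annotated 5′ end of lin-1, 110 bp upstream, the signal was 7.34. A summit of 6.57 lay 186 bp from the 5′ end of another lin-1 transcript. The intronic sequence is shown as that of the strongest peak left below the threshold. It holds the letters CCGGAA of an ETS-type core 149 bp before the summit, farther than the 100 bp of the main motif search. Within 200 bp these letters were at 8.32% of all thresholded summits and at 5 of the 43 pooled summits of the 10 genes. Within 100 bp they were at 4% and at 2 of the 43. The capitals mark the match in chrIV:2281308-2281577, plus strand.
lin-1: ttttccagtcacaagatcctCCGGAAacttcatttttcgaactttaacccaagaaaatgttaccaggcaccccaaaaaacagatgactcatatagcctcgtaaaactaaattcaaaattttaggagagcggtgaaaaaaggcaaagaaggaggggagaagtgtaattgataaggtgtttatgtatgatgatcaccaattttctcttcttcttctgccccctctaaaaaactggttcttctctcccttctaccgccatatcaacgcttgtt

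For lin-31 (WBGene00003017, chromosome II, 3982549 to 3987029), the strongest pooled peak had a signal of 11.7 at rank 8951, 1843 bp upstream. It had 7.86 in replicate 2 and 2.198 in replicate 1. Another 2 pooled summits lay 230 and 993 bp inside the gene, with 5.21 and 4.98, and each overlapped a peak of 1 replicate. None of the lin-31 values comes near the threshold.

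On the Notch side, the receptor gene lin-12 (WBGene00003001, chromosome III, 9060221 to 9071472) had 7 pooled summits, the highest 12.03 and 11.96 at ranks 8653 and 8723. The first overlapped no peak of either replicate. The other, in an intron 5131 bp inside the gene, overlapped a peak of 3.97 in replicate 1 and one of 9.08 in replicate 2. Another replicate 2 peak, with its summit nearer, had 6.83.  The promoter-side summit, 619 bp upstream, had 8.58 and was found in replicate 2 alone, at 6.72. A thresholded summit of 67.5 lay 6.1 kb beyond the 3′ edge of the window, 310 bp from the 5′ end of R107.5.

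The DSL ligand genes lag-2 (WBGene00002246, chromosome V, 3188343 to 3190115) and apx-1 (WBGene00000168, chromosome V, 3210196 to 3223221) lie close together and were both low. At lag-2 the single pooled summit, 1793 bp upstream, had 8.37 at rank 14262, with 7.32 in replicate 2 and no summit anywhere in the window in replicate 1. At apx-1 the 2 pooled summits, both in introns, had 5.37 and 5.17. They lay 11896 and 9496 bp inside the gene and 3122 and 722 bp from the nearest 5′ end of an apx-1 transcript. The first overlapped no replicate peak and the second only one of 4.01 in replicate 2. The highest replicate 1 value at apx-1, 4.599, lay 727 bp upstream, where the pooled and replicate 2 lists had no summit. The nearest thresholded summit to both was the same one, at arrd-19, 125.4 and 92.3 kb beyond their windows.

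**Figure D2:**
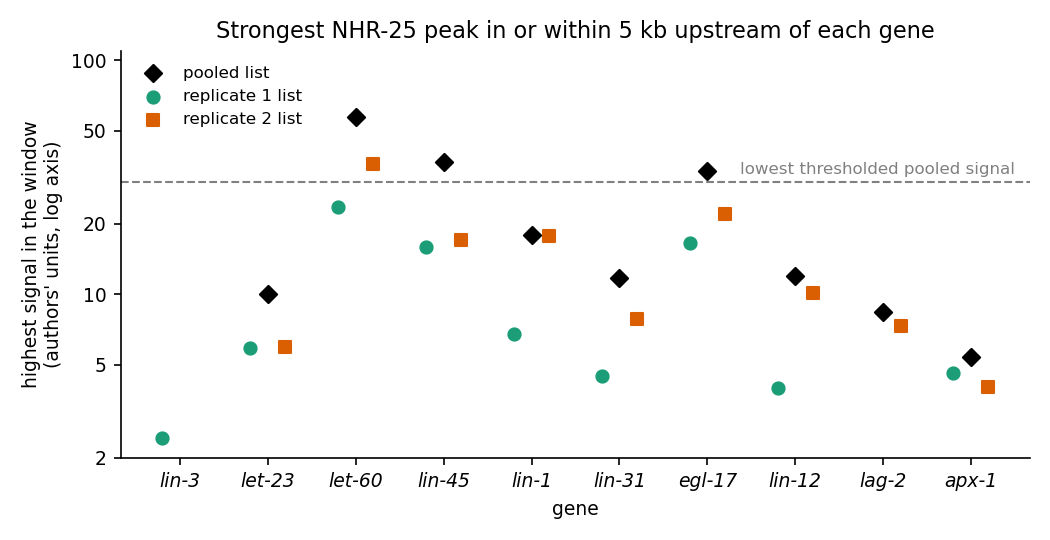
Highest signal in each gene's window in the pooled list (diamonds), replicate 1 (circles) and replicate 2 (squares), in the authors' units on a log axis, with the lowest thresholded pooled signal as a dashed line. Signals are comparable within a list only. The pooled values of let-60, lin-45 and egl-17 stand above the line of 30.3, lin-1 follows at 17.9, and lin-3 has a replicate 1 value alone.

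In order of highest pooled signal the genes ran let-60, lin-45, egl-17, lin-1, lin-12, lin-31, let-23, lag-2, apx-1 and then lin-3 with none. Within replicate 1 let-60 led with 23.6, followed by egl-17 with 16.6 and lin-45 with 16.0. Within replicate 2 let-60 led with 36.2, egl-17 had 22.0, lin-1 17.7 and lin-45 17.1. Only the place of let-60 at the head was the same in all of these lists. The order of lin-45, egl-17 and lin-1 changed between lists. With 2 replicates no test of the order was made.

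Each of the 3 thresholded peaks overlapped a peak in both replicate lists, as did 98.2% of all thresholded peaks. This is partly built in, since the thresholded list is one of both replicates pooled and so rests on the same data. Counting only the 1826 strongest peaks of each replicate, let-60 and egl-17 kept support in both and lin-45 did not, and 52.4% of thresholded peaks had it.

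**Figure D3:**
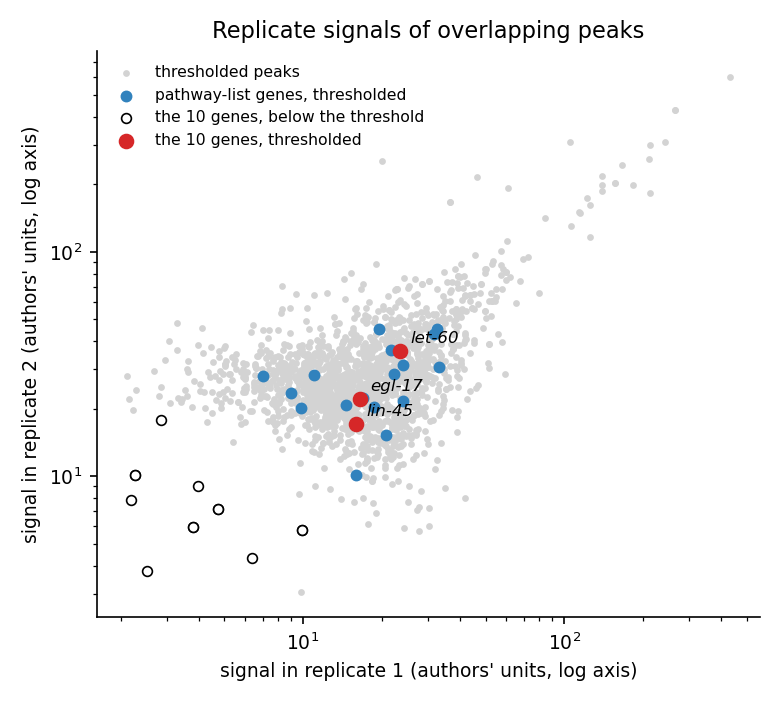
Signal of the strongest overlapping peak in replicate 1 against replicate 2, in the authors' units on log axes, for peaks found in both. Grey points are thresholded peaks, blue points thresholded peaks of the pathway lists, open points pooled peaks of the 10 genes below the threshold (several share a replicate peak and coincide), and red points the 3 thresholded peaks. The red points lie among the grey ones, at 16.0 to 23.6 in replicate 1 and 17.1 to 36.2 in replicate 2.

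The NR5A site TCAAGGTCA and its core CAAGGNC were searched on both strands within 100 bp of the 3 summits, and neither was found there. Over all thresholded summits they were at 0.931% and 10.8%, so their absence from 3 summits says only that these letters are not in these windows. The nuclear receptor half-site AGGTCA, which overlaps the full site, was at 12.4% of thresholded summits and at 1 of the 3, that of lin-45. It begins 94 bp from the summit, in the short piece chrIV:6747771-6747800 (plus strand) shown here with the half-site in capitals.
lin-45 half-site: ttcgcagatagaAGGTCAacaaaagaaaga

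No other motif searched was within 100 bp of the 3 summits. These were GAGAGAG (at 20.6% of all thresholded summits), the EOR-1 type site GAGACGCAG (12.2%), the E-box CACGTG (8.38%), the LAG-1 core GTGGGAA (2.08%), the ETS core CCGGAA (4%) and the forkhead site TGTTTAC (3.34%). The GAGA-type match at let-60 begins 158 bp from its summit, outside that distance. Base composition within 100 bp of the summits was 53.2% G and C at let-60, 46.3% at egl-17 and 44.3% at lin-45, against a median of 43.8% over thresholded summits and 35.4% in the genome.

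Other genes of the same pathways also had thresholded summits. Of 27 further EGF-Ras genes, 9 had a thresholded summit (33.3%), of 17 Notch genes 5 (29.4%) and of 11 vulval fate and anchor cell genes 3 (27.3%), where the share over all protein-coding genes was 13.1%. Per 10 kb of window the densities were 0.214, 0.302 and 0.238, against 0.202 over all genes. The EGF-Ras density was thus close to that over all genes, and the Notch density was the highest of the lists. On chromosome X, 6 of 13 of these genes had a summit, where 16.8% of X-linked genes did, and on autosomes 11 of 42, where 12.5% did. These shares take no account of window length. The median windows of the EGF-Ras, Notch and vulval lists were 13, 8.42 and 10.4 kb, against 7.03 kb over all genes. No test was made on these lists.

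**Figure D4:**
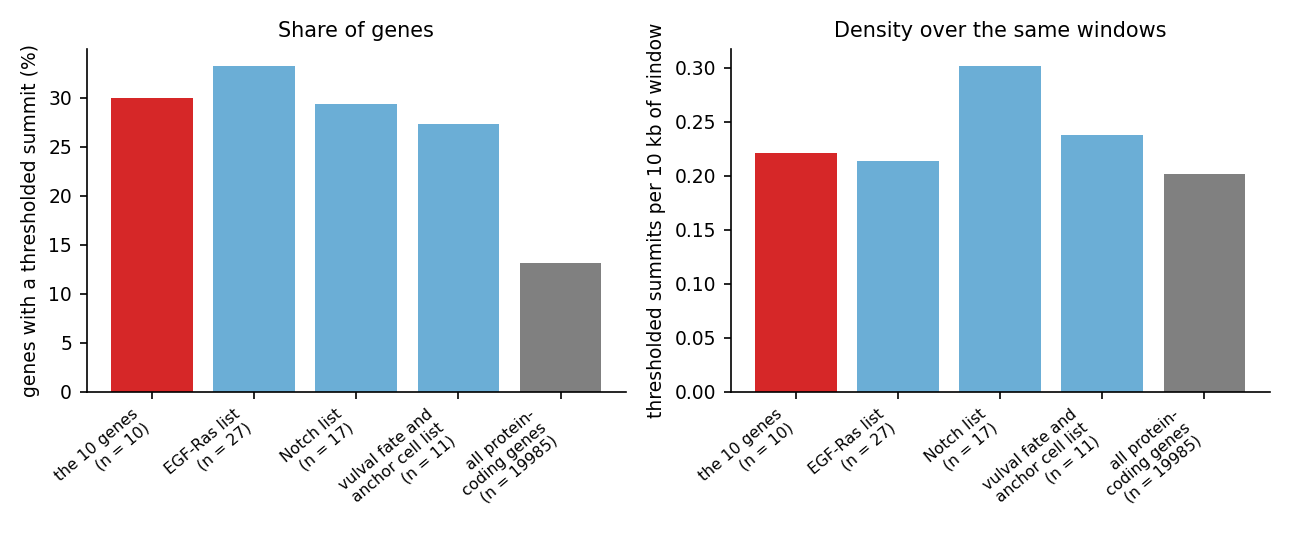
Left, percent of genes with a thresholded summit in the gene or within 5 kb upstream; right, thresholded summits per 10 kb of the same windows, for the 10 genes (red), the pathway lists (blue) and all protein-coding genes (grey), with the number of genes under each bar. The share of the 10 genes is 30% against 13.1%, while their density is 0.221 against 0.202.

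Within the EGF-Ras list, the strongest summit was in the window of gap-2, a Ras GTPase-activating protein gene, in the peak at chromosome X 9467598 to 9467987, with a signal of 52.2 (24.2 in replicate 1 and 31.4 in replicate 2). That summit is 4677 bp upstream and inside the tRNA gene WBGene00014634 and the noncoding gene ZK899.10. The 5′ end of ZK899.6 is nearer to it, at 4448 bp. The gene lin-7, part of the complex that places LET-23 on the basolateral membrane, had 47.4 at 304 bp upstream, but the 5′ end of elof-1 is nearer, at 28 bp. The adaptor gene sem-5 (Grb2) had 39.9 at 464 bp upstream, and sli-1 (Cbl), a negative regulator of LET-23, had 31.5 at 1892 bp upstream. The MAP kinase gene mpk-1 had 40.8 in an intron 4277 bp inside the gene, with 18.7 and 20.4 in the replicates. The scaffold gene cnk-1 had 40.5 at 281 bp upstream, and sur-5, found as a suppressor of activated Ras, had 45.5 at 1047 bp upstream. Of the nuclear factors, the zinc-finger gene eor-1 had 40.4 at 104 bp upstream and the Mediator subunit gene sur-2 had 31.3 at 131 bp upstream.

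In the Notch list, lst-1, a target of lateral signalling, had the strongest summit (peak at chromosome I 10585380 to 10585769), 72.9 at 2926 bp upstream, with 32.6 in replicate 1 and 45.1 in replicate 2. The epsin gene epn-1, which acts in endocytosis of DSL ligands, had 63.4 at 421 bp upstream (chromosome X, 14818740 to 14819129), with 31.8 and 43.1. The gene lag-1, whose CSL protein carries the Notch signal on DNA, had 47.6 in an intron (chromosome IV, 6096990 to 6097379), with 21.7 and 36.3. Within 100 bp of that summit lay the LAG-1 core GTGGGAA. The lateral target gene lst-4 had 50.002 at 1250 bp upstream, with the 5′ end of ccar-1 nearer at 438 bp, and it too held the LAG-1 core. The co-ligand gene osm-11 had 31.2 in a coding exon. The LAG-1 core was thus at 2 of the 17 summits of all lists, and at 2.08% of thresholded summits.

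In the vulval fate and anchor cell list, fos-1, which the anchor cell needs to invade the vulval epithelium, had 58.8 at 3068 bp upstream (chromosome V, 6000338 to 6000727), with 19.5 and 45.4 in the replicates. The morphogenesis gene egl-26 had 40.5 at 3196 bp upstream, with 22.3 and 28.4. The LIM homeobox gene lin-11 had 33.0 in an intron 4537 bp inside the gene, with 7.003 and 28.1. At lin-11 replicate 1 was low, with a rank of 5717. Of the 17 summits of all lists, 11 were among the 1826 strongest of both replicates. Of the rest, sur-5, eor-1, sur-2 and lin-11 fell outside those of replicate 1, and sli-1 and cnk-1 outside those of replicate 2. At sli-1 the replicate 2 rank was 5987. Within 100 bp, the NR5A core was at 1 of the 17 (10.8% of all thresholded summits) and the half-site AGGTCA at 1 (12.4%). The repeat GAGAGAG was at 6 of the 17 (20.6% of all thresholded summits) and the EOR-1 type site at 4 (12.2%). The ETS core was at 2, those of sem-5 and lin-7 (4%), and the forkhead site at 1, that of sur-5 (3.34%). The NR5A site TCAAGGTCA (0.931%) and the E-box (8.38%) were at none. These shares were not tested against each other.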

How the data were processed

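ChIP-seq of tagged NHR-25 was run on 2 biological replicates. The peak lists were used as the authors deposited them, in the 10-column narrowPeak layout on ce11. There was a list for each replicate, a pooled list of peaks and background, and a thresholded list. The last, like the pooled list, was of both replicates pooled, per the deposited text records. The signal of each peak is the authors' deposited value on a scale that is not stated, so it was ranked and compared within a list only. The aligner, peak caller and threshold were not given in the sources used here. Read depth is unknown. The ce10 lists were not used.

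Genes came from Ensembl release 115 on WBcel235 (ce11) and sequence from the RefSeq copy of that assembly. A summit is the peak start plus the deposited offset, and coordinates count from 1. A gene's window is its body plus 5 kb upstream of its 5′ end. Replicate support is the strongest replicate peak overlapping by at least 1 bp. Of 18 Notch genes listed, lst-3 matched no protein-coding symbol. The members, lists and motifs were chosen with earlier results of these data known, so no test was made. The text names the 10 genes, list genes with a thresholded summit and genes with the nearest 5′ end. Window and motif counting recovered all 200 planted summits and 200 planted motifs in simulated data. Python 3.11.15, pandas 2.3.3, numpy 2.4.6 and matplotlib 3.10.9 were used.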

Additional observations from a re-analysis of the deposited data

How the results depend on the processing

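The 3 genes were the same with 2 kb upstream, with windows ended at the nearest protein-coding gene, with any peak overlap, with pooled peaks 2 times as many and without replicate 2. let-60 was lost with 1 kb upstream and lin-45 without replicate 1 (2 to 3 genes, and as many summits, when a replicate was left out). Above the median thresholded signal 1 gene, let-60, and 1 summit were left, since the signals at lin-45 and egl-17 lie under that median. The share of protein-coding genes was then 7.37%. It was 8.97% with 2 kb upstream and 7.12% with 1 kb. With windows ended at a neighbour it was 8.69%, and with 2 times as many pooled peaks 22.1%. Without each replicate it was 12.4% to 12.8%. Support in both replicates held for 2 to 3 genes. Motif matches numbered 1 at 100 bp, 0 at 50 bp and 2 at 200 bp, where let-60 gained GAGAGAG. Over the EGF-Ras, Notch and vulval lists, of 27, 17 and 11 genes, 9, 5 and 3 had a summit. These were 8, 4 and 1 with 2 kb upstream, 6, 3 and 1 with 1 kb, 3, 4 and 1 above the median signal and 12, 7 and 4 with 2 times as many pooled peaks. They were 7, 5 and 2 without replicate 2 and 8, 6 and 3 without replicate 1. No paired analysis was possible because there is a single group. With 2 replicates of unknown depth, weak sites cannot be told from background.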
